A study of Mus musculus with 6 samples.

Results

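Dapl1 (ENSMUSG00000026989) encodes death-associated protein-like 1, a small protein related to DAP, and was followed here in naïve CD4 T cells with and without Rnmt. It is 1 of the 46983 genes in the count tables and was taken by its symbol, with the reads counted on its own strand in all 6 libraries. The gene was selected on its low log2 fold change in this same comparison, so its own difference between the groups is given as a description, with no test. The control group was 3 libraries from male mice with the genotype Rnmt fl/fl CD4cre -, and the Rnmt cKO group was 3 libraries from male mice with the genotype Rnmt fl/fl CD4cre +. Both groups therefore carried the floxed Rnmt alleles, in which an exon is flanked by loxP sites, and only the Rnmt cKO group carried Cre, a recombinase expressed here under Cd4 regulatory sequence and so active in T cells from thymic development onwards. Carrying Cre and losing Rnmt cannot be told apart in this design. The age of these animals is not given in the sources used here. A supplementary legend of the paper gives this RNA sequencing as from 3 control and 3 Rnmt cKO mice. The sample labels do not name the animal of each library. The p-values measure the spread between these libraries. Cells were sorted from lymph nodes with a gate for naïve cells that took live TCRb+ CD4+ CD44- cells, and rRNA-depleted total RNA was sequenced.

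RNMT is the methyltransferase that adds a methyl group to the cap guanosine of mRNAs and other transcripts of RNA polymerase II, a modification used for RNA stability, processing and translation. Dapl1 was first described in differentiating epithelium, and its transcript marks naïve and stem-like T cells in expression studies. Proteins of the DAP family have also been found in the exit tunnel of dormant ribosomes of vertebrate eggs. The translation factor eIF5A, HABP4 and eEF2 occupy other sites of the same ribosomes.

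In the mm10 mouse genome Dapl1 lies on the forward strand of chromosome 2, from 59484653 to 59505020, a span of 20.4 kb. The annotation holds 1 basic transcript of 4 exons and 573 bases with a coding sequence of 107 codons. Exon 1 runs from 59484653 to 59484766, exon 2 from 59494465 to 59494552, exon 3 from 59496558 to 59496618 and exon 4 from 59504711 to 59505020. The start codon lies in exon 1 and the stop codon in exon 4. RefSeq and GENCODE place the start of the transcript at the same base. The promoter is shown because it is the sequence from which the transcripts counted here begin. It is the stretch of 250 bases that ends at the base before that start, taken from RefSeq on GRCm38.p6 (the mm10 build), 5′ to 3′ on the strand of the gene, with a forkhead motif (TGTAAACA) and a TATA motif (TATAAA) in capitals.
Dapl1 promoter, chr2:59484403-59484652, forward strand: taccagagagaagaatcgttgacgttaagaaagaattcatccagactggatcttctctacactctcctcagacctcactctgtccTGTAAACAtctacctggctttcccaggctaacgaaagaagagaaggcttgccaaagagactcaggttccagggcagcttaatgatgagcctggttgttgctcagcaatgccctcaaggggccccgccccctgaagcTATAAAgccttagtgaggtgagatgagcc

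The TATA motif began 29 bases before the transcript start, at 59484624 to 59484629. The shares of promoters given here come from 32851 promoters in the RefSeq table. They were searched in a window longer than the stretch shown, as it also held bases after the start. Of these promoters, 13.6% hold the TATA letters on either strand and 8.32% on the strand of the gene. The forkhead motif, the sequence read by factors such as FOXO1 and FOXP1, began 165 bases before the start, and 1.38% of promoters hold it on either strand. A GC box (GGGCGG), read by factors of the SP and KLF families, lay on the opposite strand 43 bases before the start, and 35.7% of promoters hold one. The letters CTTTGA of TCF and LEF factors, CACCC of KLF factors, TGTGGT of RUNX factors and CACGTG of E-box factors were not in this window on either strand, while 16%, 57.5%, 16.8% and 7.15% of promoters hold them. The motifs were chosen after the sequence had been seen, and a match describes letters in a window, not bound protein. The 3 matches do not overlap each other.

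Dapl1 held 816, 645 and 821 counts in controls 1, 2 and 3, and 199, 243 and 323 counts in Rnmt cKO libraries 1, 2 and 3. The libraries held between 8873413 and 11277764 sense counts in genes. Scaled to library size with TMM factors, the Dapl1 level was 95.9, 64.4 and 90.7 CPM (counts per 1000000 sense reads, after scaling) in the controls and 21.0, 20.5 and 29.0 CPM in Rnmt cKO cells. Every Rnmt cKO library lay below every control, and the lowest control exceeded the highest Rnmt cKO library by 2.22-fold. The mean level was 83.7 CPM in controls, with an SD of 16.9 (n = 3), and 23.5 CPM in Rnmt cKO cells, with an SD of 4.73 (n = 3), a difference of -1.82 ± 0.24 (SE) in log2 CPM, or 3.53-fold. In this bulk RNA, fewer cells that express a gene and less RNA per cell cannot be told apart.

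**Figure D1:**
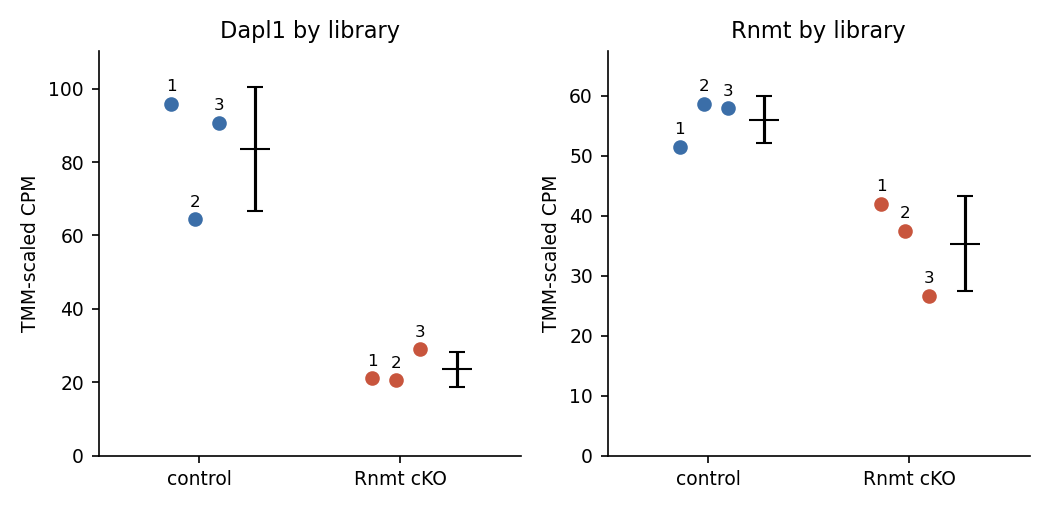
Level of Dapl1 (left) and Rnmt (right) in TMM-scaled CPM in each of the 6 libraries, with replicate numbers beside the points and the group mean ± SD (n = 3) beside each group. The Rnmt cKO libraries sit at 20.5 to 29.0 CPM for Dapl1, all below the controls at 64.4 to 95.9 CPM, and Rnmt cKO 3 is the highest of its group for Dapl1 and the lowest for Rnmt.

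The error of counting is given for the nearest libraries of both groups. Dapl1 was chosen for its fall, so the intervals below describe these counts and are not a test. Before TMM scaling, control 2, the lowest control, held 63.1 Dapl1 reads for every 1000000 sense counts, with a Wilson 95% interval of 58.4 to 68.2, and Rnmt cKO 3, the highest Rnmt cKO library, held 28.6, with an interval of 25.7 to 31.9. Such intervals cover the error of counting alone, because without molecular identifiers several reads can stem from 1 molecule. Dapl1 reads came from its own strand, with 8 antisense counts against 3047 sense counts over the 6 libraries. That is 0.262% of the Dapl1 reads, against 4.81% over all genes.

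The Dapl1 level spread more within the groups than that of most genes with a similar control level. The highest control exceeded the lowest by 1.49-fold and the highest Rnmt cKO library exceeded the lowest by 1.41-fold, and the coefficient of variation was 20.2% in controls and 20.1% in Rnmt cKO cells. Among the 3394 tested genes whose control mean was within 2-fold of that of Dapl1, the median coefficient of variation was 5.92% in controls and 7.82% in Rnmt cKO cells, and 98.6% and 95.6% of them had a lower one than Dapl1. These genes were matched on the control level, and Dapl1 lies below that level in Rnmt cKO cells. Their median log2 difference was 0.03 and the lowest was -1.77, that of Rnu12.

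Per length, Dapl1 was among the more abundant mRNAs of the control cells. Its level was 167, 112 and 158 RPKM (CPM per kb of exon) in the controls and 36.7, 35.8 and 50.5 RPKM in Rnmt cKO cells. Among 10390 tested protein-coding genes it ranked 217, 314 and 200 in controls 1, 2 and 3, and it ranked 1485, 1520 and 1041 in the libraries Rnmt cKO 1, 2 and 3. By the group mean it ranked 238 in controls, at 146 RPKM, and 1304 in Rnmt cKO cells, at 41.0 RPKM.

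The 3 protein-coding genes just above Dapl1 in control level per length were Grk6, a kinase of G protein-coupled receptors, Ubb, a polyubiquitin gene, and Cct5, a chaperonin subunit. Among those just below were Hnrnpk, an RNA-binding protein, and Ikzf1, a lymphoid transcription factor. Their control means ran from 142 to 147 RPKM, so their order among themselves and against Dapl1, whose controls ran from 112 to 167 RPKM, lies within the spread. Their log2 differences were 0.25, 0.29 and 0.09 for Grk6, Ubb and Cct5, and 0.02 and -0.11 for Hnrnpk and Ikzf1. In edgeR's exact test, with p-values adjusted by Benjamini-Hochberg over all genes, none of these 5 was called, with adjusted p values between 0.0693 and 0.945. None of these neighbours in level had a log2 difference of the size seen for Dapl1. That follows from the choice of Dapl1 for its fall, as only 14 tested genes had a lower log2 difference.

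The targeted gene was lower in Rnmt cKO cells. Rnmt (ENSMUSG00000009535, chromosome 18, 68300355 to 68324852) was at 51.5, 58.7 and 57.9 CPM in controls 1, 2 and 3 and at 41.95, 37.5 and 26.6 CPM in Rnmt cKO 1, 2 and 3. Every Rnmt cKO library lay below every control, and the log2 difference was -0.68 ± 0.20 (SE, edgeR exact test adjusted p = 0.00035). Cre removes a single exon of Rnmt while counts cover the whole gene, so these reads do not measure intact Rnmt transcript. The order of the Rnmt cKO libraries differed between the genes, since Rnmt cKO 3 had the least Rnmt and the most Dapl1.

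The share of uniquely mapped reads not counted to a gene on its own strand, which includes antisense reads, varied among libraries, and ran from 36.1% to 46.1% in controls and from 31.8% to 47.9% in Rnmt cKO cells. Rnmt cKO 3 had the lowest share of all 6. Among the 3 libraries with shares of 31.8% to 39.7%, Dapl1 was at 80.2 CPM on average in the 2 controls and at 29.0 CPM in the Rnmt cKO library, a log2 ratio of -1.43. Among the 3 with shares of 46.1% to 47.9%, it was at 90.7 CPM in the control and at 20.8 CPM on average in the 2 Rnmt cKO libraries, a log2 ratio of -2.12. Each set has 1 library in an arm, and since the groups do not overlap for Dapl1, the direction within each set was given by that. Within groups, the chi-square of gene counts between libraries was 3.64 to 22.9 per degree of freedom, above sampling noise, and each library was counted as a sample.

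The Dapl1 count can also be set against that of other T cell transcripts of the same library, which were chosen with their values known. Where such a transcript hardly differs between the groups, as Cd3e (log2 difference -0.06) and Tcf7 (0.18), the ratio restates the Dapl1 values. Relative to Cd3e, a chain of the T cell receptor complex, the Dapl1 count was 0.621, 0.469 and 0.558 in the controls and 0.148, 0.149 and 0.187 in Rnmt cKO cells. Relative to Tcf7, the transcription factor TCF1 of naïve T cells, it was 0.0940 ± 0.0211 in controls and 0.0230 ± 0.00245 in Rnmt cKO cells (both SD, n = 3). Neither ratio overlapped between the groups. Relative to Il7r, the receptor chain for the survival cytokine IL-7, the ratio was 0.229 ± 0.0549 in controls and 0.126 ± 0.0350 in Rnmt cKO cells (both SD, n = 3). Here the groups nearly met, at 0.167 in control 2 and 0.166 in Rnmt cKO 3, as Il7r was itself lower in Rnmt cKO cells.

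Across all 12336 tested genes, 844 were lower in Rnmt cKO cells (6.84% of those tested) and 987 were higher (8.0%) in the edgeR exact test. Among the 656 lower genes whose groups did not overlap and whose mean was 5 CPM or more, Dapl1 had the 4th largest fall, and among the 567 of these that code for protein it had the largest. Dapl1 was chosen for its fall, so its place restates that choice, and its own call is not read as a test. The next protein-coding gene, Apol9b, was at -1.8191 ± 0.19 (SE) against -1.8203 ± 0.24 (SE) for Dapl1, so their order lies within the error. Of all tested genes 14 had a lower log2 difference than Dapl1, of which 11 had a mean under 5 CPM. The 3 above that level were Gm13546, an antisense RNA, Gm32633, a long intergenic RNA, and Gm24044, a snoRNA. With a prior count of 5 in place of 2, which shrinks low genes, no gene with a mean of at least 5 CPM had a lower log2 difference than Dapl1. With a prior count of 0.25 there were 4 such genes, and without Rnmt cKO 3 there were 8.

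**Figure D2:**
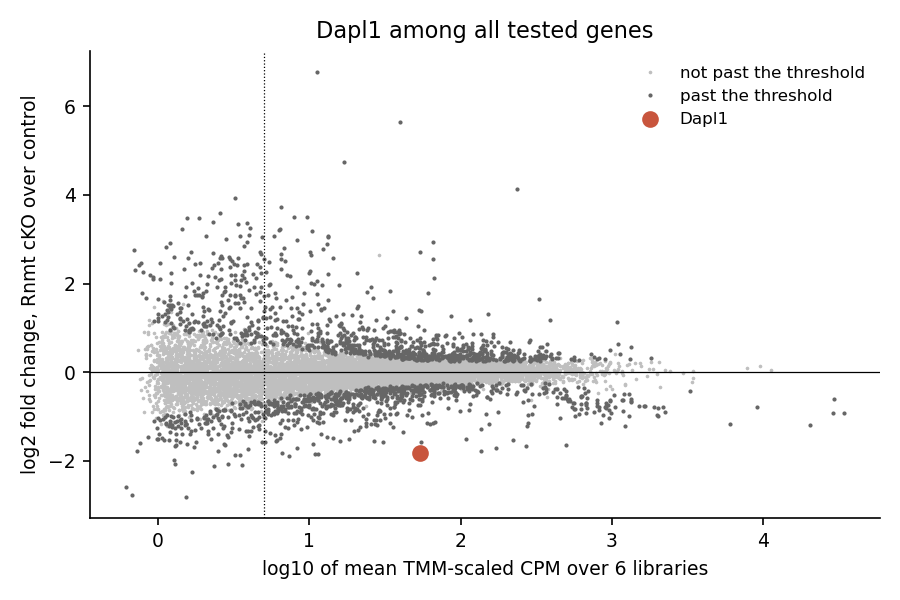
Log2 difference (Rnmt cKO over control) of the 12336 tested genes against the log10 of their mean TMM-scaled CPM, with genes past the adjusted p threshold of 0.05 in dark grey and Dapl1 in red. The dotted line marks a mean of 5 CPM, to the right of which 3 genes lie below Dapl1 at -1.82.

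The genes with falls nearest in size to that of Dapl1 were mostly not mRNAs. Gm13546, which overlaps Cytip on the opposite strand and ends 1.31 Mb before Dapl1, was at 12.1, 9.08 and 13.6 CPM in controls and 4.02, 1.86 and 3.32 CPM in Rnmt cKO cells (log2 difference -1.90). Gm32633 was at 19.0, 15.5 and 19.9 CPM against 4.33, 5.40 and 4.93 CPM (-1.85). Gm24044 was at 22.8, 14.4 and 13.1 CPM against 2.75, 3.29 and 9.32 CPM (-1.84), with Rnmt cKO 3 well above the other libraries of its group. Below Dapl1 in the order came Apol9b, of the apolipoprotein L family, at -1.82, the snRNA Gm24407 at -1.78, Rnu12, the U12 RNA of the minor spliceosome, at -1.77, and Rnf43, a ubiquitin ligase that lowers Wnt receptors, at -1.71. The snoRNAs Gm24119 at -1.70 and Snora73b at -1.68 closed the 10 largest falls, and Snord17 at -1.64 and Snord15a at -1.62 stood just outside them. Reads of Apol9b may be shared with its near-identical copy Apol9a, so its level is uncertain.

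Of these 10 genes, Gm24407, Gm24119 and Snora73b were more abundant in CPM than Dapl1 in controls, at means of 210, 260 and 406 CPM, and Rnu12 was close to it at 88.1 CPM. Apol9b and Rnf43, the other protein-coding genes, were far lower, at 10.5 and 12.8 CPM. In the snRNAs, the snoRNAs and Rnu12, as in Dapl1, Rnmt cKO 3 was the highest library of its group. Gm24407 was at 45.3, 40.7 and 105 CPM and Rnu12 at 22.6, 19.8 and 36.8 CPM in Rnmt cKO 1, 2 and 3. Gm13546 and Gm32633 did not follow that order, with their highest Rnmt cKO values in libraries 1 and 2.

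**Figure D3:**
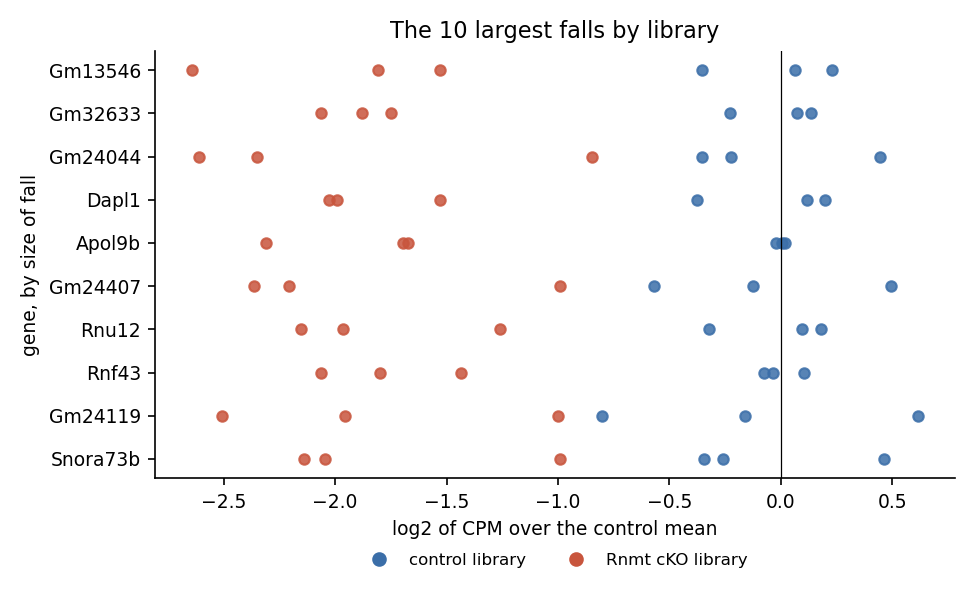
Log2 of the CPM in each library over the control mean for the 10 genes with the largest falls, in order of their log2 difference, with controls in blue and Rnmt cKO libraries in red. No Rnmt cKO point of any of the 10 genes overlaps its control points, since that was part of the choice, and in the snoRNAs and snRNAs 1 Rnmt cKO point, that of Rnmt cKO 3, stands nearer to the controls.

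The genes whose log2 CPM followed that of Dapl1 most closely over the 6 libraries, among 9704 genes with a mean of at least 5 CPM, were Bbs9, Tpt1-ps3, P2rx7, Padi2 and Tpst1. Their Pearson r with Dapl1 was 0.997, 0.996, 0.993, 0.993 and 0.992, and their Spearman rho 0.886, 1, 0.886, 0.943 and 0.943. With 3 libraries in each group, such values mainly reflect a shared difference between the groups, 191 genes had an r above 0.95, and depth and library are shared by all points. The 5 genes differed from Dapl1 in the size of their fall. Bbs9, a subunit of a complex of the primary cilium, had a log2 difference of -0.40, and P2rx7, an ATP-gated ion channel, one of -1.18. Padi2, a peptidylarginine deiminase, was at -1.15, Tpst1, a tyrosylprotein sulfotransferase, at -0.90, and Tpt1-ps3, a processed pseudogene that may share reads with its parent gene, at -0.85.

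Likeness was also taken as the distance between log2 profiles, each centred on its mean over the 6 libraries, which also weighs the size of the fall. The 5 nearest genes were then Rnu12, Snord15a, Igsf23, Gm32633 and Apol9b, and 0 of the first 5 were among them. Rnu12 was nearest by that measure, with a distance of 0.294 in log2 CPM. Igsf23, an immunoglobulin superfamily gene, was the nearest protein-coding gene, at 41.3, 34.8 and 43.8 CPM in the controls and 10.7, 13.2 and 17.4 CPM in Rnmt cKO cells. By Spearman correlation, 70 genes had a rho of 1, among them Tpt1-ps3 as the only one of the 5.

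Genes that mark naïve T cells did not move together with Dapl1. Of a list of 32 such genes, all tested, 6 fell and 9 rose in the edgeR exact test, and 17 were not called. Over all tested genes, 6.84% were lower and 8.0% higher. The median log2 difference of the list was -0.01 against 0.01 for all tested genes. Groups did not overlap for 9 genes that were lower and 10 that were higher in Rnmt cKO cells, where 14.9% of all tested genes were separated downwards and 16.6% upwards. The summed level of the list was 12036 to 12372 CPM in controls and 13752 to 14651 CPM in Rnmt cKO cells. None of the 32 had as low a log2 difference as Dapl1, which was chosen for its fall, the nearest being Ly6c1 at -1.35.

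The 6 genes that fell include surface and signalling molecules. Ly6c1, a GPI-anchored surface protein, was at 73.7, 47.8 and 57.5 CPM in controls and 24.9, 18.6 and 25.9 CPM in Rnmt cKO cells (log2 difference -1.35 ± 0.23 SE, edgeR adjusted p = 1.83e-12), though reads may be shared with its near-identical neighbour Ly6c2. Il7r was at 381, 386 and 336 CPM against 203, 191 and 175 CPM (-0.96 ± 0.09 SE, edgeR adjusted p = 2.44e-17). In both genes, as in Dapl1, all Rnmt cKO libraries lay below all controls. The sialyltransferases St8sia6 and St8sia1 had log2 differences of -0.90 (edgeR adjusted p = 1.09e-11) and -0.40 (edgeR adjusted p = 0.000694), and Als2cl and Tdrp of -0.38 and -0.34 (edgeR adjusted p = 0.00667 and 0.00311). Without control 2, Als2cl was no longer called (edgeR adjusted p = 0.0878), nor was Tdrp without Rnmt cKO 2 (0.0587). Without scaling beyond library size, which raised the median log2 difference of all genes to 0.13, St8sia1, Als2cl and Tdrp were not called, and the list had 3 genes lower.

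The 9 that rose include Amigo2, a cell adhesion molecule, at 68.8, 77.8 and 65.2 CPM in controls and 152, 164 and 162 CPM in Rnmt cKO cells (log2 difference 1.18 ± 0.08 SE, edgeR adjusted p = 1.07e-28). Igfbp4, which binds insulin-like growth factors, was at 763, 634 and 643 CPM against 1419, 1323 and 1733 CPM (1.13 ± 0.14 SE, edgeR adjusted p = 2.17e-15). These genes moved opposite to Dapl1. Klf2, a transcription factor of resting T cells, had a log2 difference of 0.57 (edgeR adjusted p = 1.97e-05). Treml2 had a log2 difference of 0.50, the condensin subunit Smc4 of 0.50, Rflnb of 0.43 and the pseudokinase Trib2 of 0.40, with edgeR adjusted p between 4.65e-06 and 0.000799.

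S1pr1, the receptor that guides exit from lymph nodes, rose by less, from 792, 819 and 790 CPM in controls to 927, 966 and 1069 CPM in Rnmt cKO cells (log2 difference 0.30, edgeR adjusted p = 0.0257). Its call was kept under 8 of 15 alternatives, and edgeR adjusted p was 0.122, 0.117 and 0.124 without controls 1, 2 and 3 and 0.101 without Rnmt cKO 2. The other genes named for this list were not called. Tcf7 was at 898, 924 and 860 CPM in controls and 962, 965 and 1124 CPM in Rnmt cKO cells (log2 difference 0.18, edgeR adjusted p = 0.278), and was called higher without scaling beyond library size (0.0183). Lef1, the partner factor of TCF1, had a log2 difference of 0.03 (edgeR adjusted p = 0.912), Ccr7, the lymph node chemokine receptor, of 0.15 (0.527), the actin crosslinker Actn1 of 0.02 (0.933) and Nsg2 of 0.23 (0.212), and without scaling Nsg2 was called higher (0.00752). The difference of Lef1 changed sign without Rnmt cKO 1, and that of Actn1 without control 2 and without Rnmt cKO 3.

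**Figure D4:**
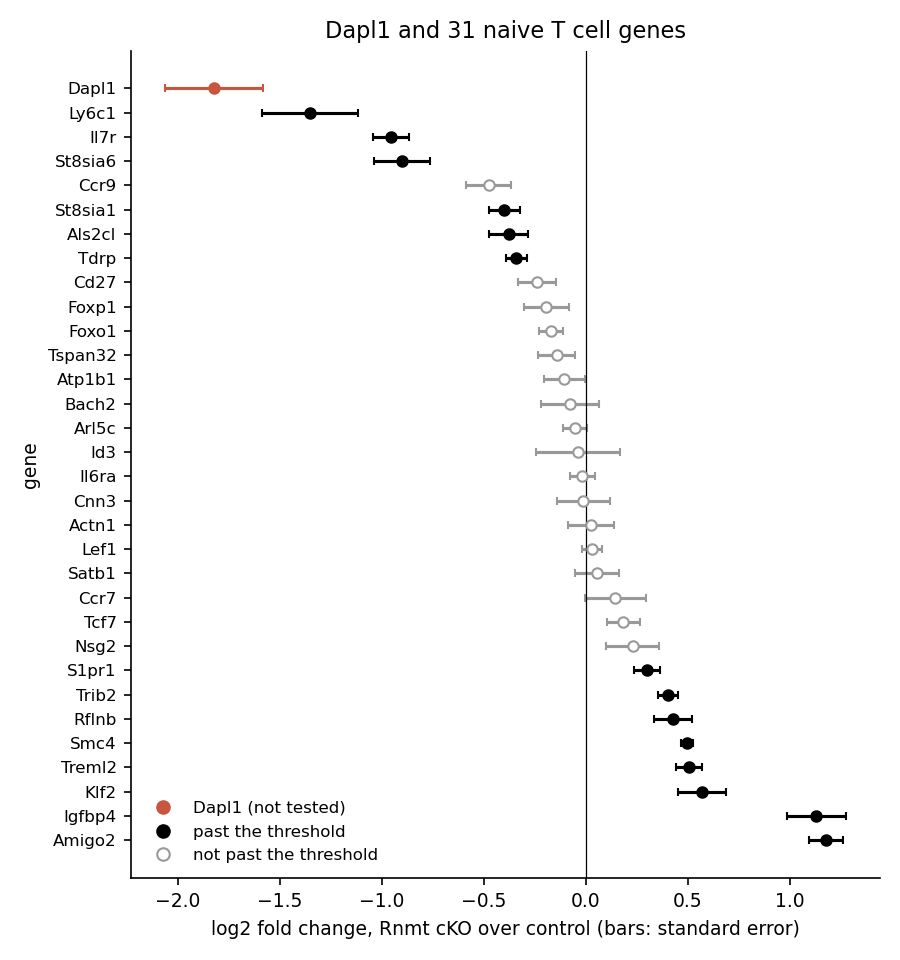
Log2 difference (Rnmt cKO over control) with its standard error for Dapl1 (red, not tested) and 31 of the naïve T cell genes, filled black where past the adjusted p threshold of 0.05 and open grey where not. Dapl1, chosen for its fall, lies at -1.82, to the left of all 31 genes. These 31 run from -1.35 for Ly6c1 to 1.18 for Amigo2, with 6 called lower and 8 called higher.

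Factors that keep T cells at rest were measured as well. Of 13 listed, 12 were tested, 0 fell and 2 rose, where 6.84% of all tested genes were lower and 8.0% higher. With 12 genes, these calls are too few to read as a difference from that background. Groups did not overlap for 0 that were lower and 5 that were higher. Of all tested genes, 14.9% were separated downwards and 16.6% upwards. The median log2 difference was 0.13. Klf4 was too low to be tested. Btg1, an antiproliferative factor that promotes mRNA deadenylation, was at 899, 853 and 834 CPM in controls and 1238, 1301 and 1478 CPM in Rnmt cKO cells (log2 difference 0.63, edgeR adjusted p = 2.49e-07). Peli1, a ubiquitin ligase, had a log2 difference of 0.31 (edgeR adjusted p = 0.0323), and was not called without control 1, 2 or 3 (0.148, 0.168 and 0.0981) or without Rnmt cKO 1 or 2 (0.208 and 0.197). Without Rnmt cKO 3 the retinoblastoma gene Rb1 was called as well (edgeR adjusted p = 0.000802). Without scaling beyond library size 5 of the 12 were called higher.

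Relatives of Dapl1 and the factors found on dormant ribosomes were measured next. Of these 10 genes, 0 fell, 2 rose and 8 were not called, where 6.84% of all tested genes were lower and 8.0% higher, and 0 is near that background. The median log2 difference was -0.05. Dap, the other member of the family, was at 25.0, 24.5 and 23.4 CPM in controls and 18.4, 21.8 and 24.3 CPM in Rnmt cKO cells (log2 difference -0.19, edgeR adjusted p = 0.482). Its groups overlapped, while those of Dapl1 did not. Per length, Dap was far less abundant than Dapl1 in controls, at 12.6 against 146 RPKM, and also in Rnmt cKO cells, at 11.2 against 41.0 RPKM.

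Among the translation factors and ribosome-binding proteins, Eif5a was at 206, 173 and 174 CPM in controls and 211, 216 and 285 CPM in Rnmt cKO cells (log2 difference 0.36, edgeR adjusted p = 0.0456). This call was kept under 6 of 15 alternatives, with edgeR adjusted p of 0.252 when control 2 was left out, 0.224 for control 3 and 0.132 for Rnmt cKO 3. With all 6 libraries it was also lost with DESeq2 size factors (edgeR exact test adjusted p = 0.062) and in the edgeR quasi-likelihood test (adjusted p = 0.085). Ifrd1, a ribosome-binding factor, was at 36.8, 38.2 and 35.7 CPM against 44.7, 46.4 and 44.9 CPM (log2 difference 0.30, edgeR adjusted p = 0.0318), and was called without Rnmt cKO 3 but in no other set that left out 1 library, where edgeR adjusted p was 0.133, 0.0987 and 0.148 without controls 1, 2 and 3 and 0.0929 and 0.177 without Rnmt cKO 1 and 2. Habp4, which binds inactive ribosomes, was at 14.8, 15.5 and 14.8 CPM against 11.6, 11.1 and 11.7 CPM, and its log2 difference of -0.39 (edgeR adjusted p = 0.0598) was called lower without Rnmt cKO 3 (0.0426). Its groups did not overlap.

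The elongation factor gene Eef2 was at 3885, 3625 and 3260 CPM in controls and 2797, 2688 and 3906 CPM in Rnmt cKO cells. Rnmt cKO 3 lay above all controls and the other Rnmt cKO libraries below them, with a log2 difference of -0.21 (edgeR adjusted p = 0.462) that became -0.40 (0.000445) without Rnmt cKO 3. Serbp1, a relative of Habp4, had a log2 difference of 0.06, Ccdc124, a ribosome-binding protein, of -0.05, Pa2g4, which binds the large subunit, of 0.03, Ifrd2 of -0.04 and Eif5a2 of -0.06, with edgeR adjusted p between 0.792 and 0.991. The signs for Ccdc124, Pa2g4, Ifrd2 and Eif5a2 each changed under at least 1 alternative.

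On chromosome 2, the genes around Dapl1 moved in both directions. Of 29 annotated genes within 1 Mb of either end, 7 were tested, of which 2 fell and 2 rose, against 6.84% lower and 8.0% higher over all tested genes, with a median log2 difference of 0.16. The 22 others held at most 56 counts in all 6 libraries together, and 8 of them held none. Tanc1, a scaffold protein gene whose start lies 107 kb after the end of Dapl1 on the same strand, was at 77.0, 75.8 and 77.9 CPM in controls and 60.4, 60.3 and 62.6 CPM in Rnmt cKO cells (log2 difference -0.33 ± 0.02 SE, edgeR adjusted p = 0.00366). Replicates of Tanc1 were closer together than those of Dapl1, and its fall was smaller.

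Wdsub1, which lies on the opposite strand with its nearer end 347 kb after Dapl1, was at 4.35, 3.69 and 5.08 CPM against 1.90, 1.52 and 2.15 CPM (log2 difference -1.15, edgeR adjusted p = 0.000457). On the other side, Pkp4, a catenin of cell junctions, was at 24.9, 27.0 and 19.3 CPM in controls and 48.1, 46.0 and 41.2 CPM in Rnmt cKO cells (0.93, edgeR adjusted p = 3.42e-09). It ends 129 kb before Dapl1, and the start of the divergent gene Ccdc148 lies next to its own. Ccdc148 was at 0.588, 0.898 and 1.22 CPM against 2.01, 2.53 and 2.87 CPM (1.31, edgeR adjusted p = 0.00139). Ccdc148 was tested only because Rnmt cKO libraries exceeded 1 CPM, so a fall could hardly have been called. In the edgeR quasi-likelihood test with a replicate block it was not called (adjusted p = 0.058). Both tested genes nearest to Dapl1 downstream were thus lower and both upstream were higher. Further away, Baz2b had a log2 difference of 0.16, March7, a ubiquitin ligase, of 0.24 and Ly75, an endocytic receptor, of 0.13, with edgeR adjusted p of 0.436, 0.101 and 0.436. Without Rnmt cKO 3, Baz2b and March7 were called higher (edgeR adjusted p = 0.00355 and 0.00336). Without scaling beyond library size, Tanc1 was not called (0.127), and March7 and Ly75 were called higher (0.0198 and 0.0462).

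**Figure D5:**
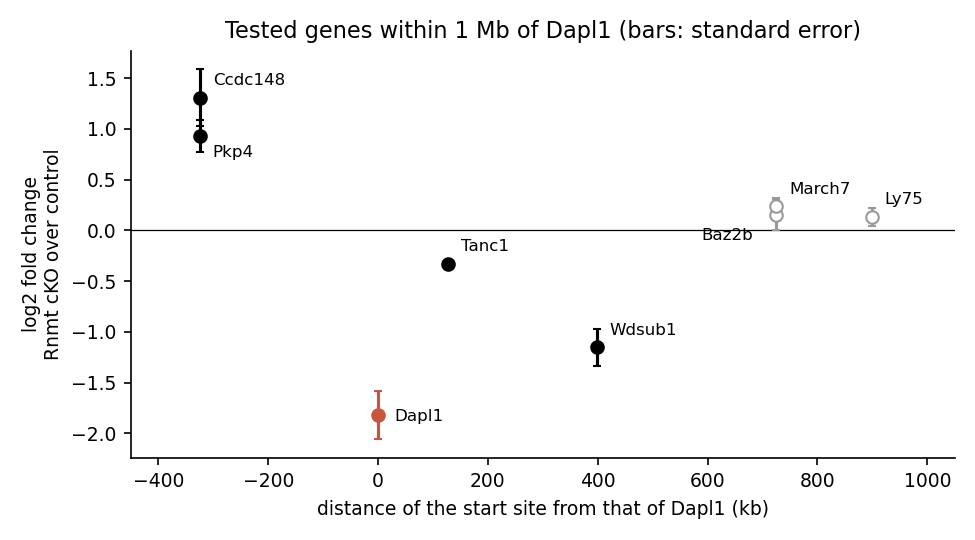
Log2 difference (Rnmt cKO over control) with its standard error for Dapl1 (red, not tested) and the 7 tested genes within 1 Mb, against the distance of each start site from that of Dapl1 in kb, filled black where past the adjusted p threshold of 0.05 and open grey where not. Ccdc148 and Pkp4 on the left are above 0, and Tanc1 and Wdsub1 are below 0. No neighbour is as low as Dapl1, which was chosen for its fall.

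Markers of the sorted cells and of other cells were checked beside Dapl1. Their calls are to be read against the 6.84% lower and 8.0% higher over all tested genes. The 7 naïve CD4 T cell markers, among them Cd3e, Cd3g, Trbc1, Trbc2, Cd4 and Ccr7, summed to 3678 to 4194 CPM in controls and 4300 to 4967 CPM in Rnmt cKO cells, with 1 called lower, Cd3g, and 2 called higher, Cd4 among them. The CD8 markers Cd8a and Cd8b1 summed to 21.7 to 23.3 CPM in controls and 13.5 to 17.3 CPM in Rnmt cKO cells, lower like Dapl1 but by less. Cd8b1 had a log2 difference of -0.58 (edgeR adjusted p = 0.00288, and 0.0505 without Rnmt cKO 2), and that of Cd8a, -0.87 (edgeR adjusted p = 0.0482), was kept under 3 of 14 alternatives and lost without control 1, 2 or 3 (0.115, 0.171 and 0.146) and without Rnmt cKO 1 or 2 (0.271 and 0.0981). The Dapl1 count relative to that of Cd8b1 was 4.20 ± 0.676 in controls and 1.76 ± 0.110 in Rnmt cKO cells (both SD, n = 3). Of 8 regulatory T cell markers, 3 fell, Foxp3, Nrp1 and Il2ra, and 1 rose, Tnfrsf4, and their sum was 268 to 313 CPM in controls and 239 to 254 CPM in Rnmt cKO cells. Of these, Il2ra was not called without control 3 (edgeR adjusted p = 0.0557).

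Other markers moved the opposite way to Dapl1. Over all tested genes 6.84% were called lower and 8.0% higher. All 12 cycling cell markers rose, with sums of 72.1 to 88.6 CPM in controls and 365 to 399 CPM in Rnmt cKO cells and a median log2 difference of 2.56. Aurkb, Cdk1, Bub1, Birc5 and Tpx2 were tested only because Rnmt cKO libraries exceeded 1 CPM, so a fall could hardly have been called. Aurkb, for example, was at 0.235, 0.998 and 0.331 CPM in controls 1, 2 and 3. Of 10 B cell markers 6 rose, with sums of 54.2 to 62.7 CPM against 74.4 to 113 CPM, and of 9 myeloid markers, 5 of them tested, 3 rose, with sums of 7.49 to 9.64 CPM against 17.1 to 39.7 CPM. S100a8 and S100a9, among these 3, were likewise tested only through Rnmt cKO libraries, with every control at 0.399 CPM or less. Of 16 memory and effector T cell markers, 7 were tested, of which Cd44 fell, an antigen on which the cells were sorted, and 3 rose, with sums of 231 to 235 CPM against 239 to 282 CPM. Of 6 thymocyte markers, 3 were tested and 2 rose, with sums of 38.9 to 49.5 CPM against 54.0 to 61.2 CPM, Ptcra at 0 in all libraries and Rag1 and Rag2 at or near 0. Arpp21, 1 of the 2, was also tested only because Rnmt cKO libraries exceeded 1 CPM. Of 6 epithelial markers, Krt5, Krt14 and Krt8 were at 0 in all libraries and the sum was at most 2.99 CPM, while Dapl1 was at 20.5 CPM or more in every library. The part of these cell types in the Dapl1 level was not tested.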

How the data were processed

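The authors aligned 75-base paired-end reads to mm10 with STAR 2.5.2b, using GENCODE vM12 (basic), and deposited raw counts per gene for each of the 6 libraries in 3 columns (both strands and either strand). The sense column was used, because dividing it by a single constant per library gave the normalized signal in the authors' deposited edgeR table for 100% of its 11221 genes. That signal served for this check only, and the fold changes and p-values in the same table were not used. Lines for unmapped, multimapping, ambiguous and unassigned reads were left out of library sizes and tests, and reads assigned to no gene on the sense strand took 31.8% to 47.9% of uniquely mapped reads. Of the gene identifiers, 46488 were found in GENCODE vM21 on the same build, which gave coordinates, biotypes and exon lengths.

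Genes above 1 CPM in 3 or more samples were tested in edgeR 4.0.16 (R 4.3.3) with TMM scaling, tagwise dispersion, the two-sided exact test used in the study, and Benjamini-Hochberg adjustment over all tested genes at 0.05. Log2 differences are Rnmt cKO minus control means of log2 CPM with a prior count of 2, and their standard errors come from the same values. "Rose", "fell" and "called" refer to this test. RPKM is TMM-scaled CPM per kb of merged exons. Groups did not overlap where all Rnmt cKO values were above, or all below, the controls. Wilson intervals at the 95% level came from scipy 1.17.1. The code was tested on simulated data.

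Dapl1, the gene lists and the markers were chosen with earlier results of these data known. The genes named are Dapl1, Rnmt, the 10 largest falls among called genes whose groups do not overlap and whose mean is 5 CPM or more, the 5 genes most correlated with Dapl1, the 3 genes on either side of it by control RPKM, all members of the dormancy list, the tested genes within 1 Mb, the called members of the naïve and quiescence lists, and Tcf7, Lef1, Ccr7, Igfbp4, Actn1 and Nsg2. Of the genes that meet this rule, 2 are not reported here. Markers, members of alternatives and genes used as denominators or as the nearest by distance were named beside them after their values were seen. A comparison with the start sequences of other genes is not given, because their starts differed between GENCODE and RefSeq or had no match in the promoter table. Alternatives were other scaling, filters, prior counts, tests (edgeR quasi-likelihood, DESeq2 1.42.0), unstranded counts, a replicate block and leaving out each library.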

Additional observations from a re-analysis of the deposited data

How the results depend on the processing

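The log2 difference of Dapl1 ran from -2.0 to -1.7 over all alternatives, and that of Rnmt from -0.82 to -0.51, with its call kept in each. With scaling by library size alone, 535 genes were lower and 1938 higher, so that 78.4% of calls were higher in place of 53.9%, with 3 naïve genes lower, 5 quiescence factors higher, and 1 neighbour lower and 4 higher. Among the dormancy factors 1 was lower and 1 higher with DESeq2 size factors, 1 was lower when genes needed over 10 CPM in 3 samples, 1 was higher in the quasi-likelihood test, and 0 were higher without a filter, in the DESeq2 Wald test and with unstranded counts. Quiescence factors called higher numbered 1 without a filter and in the quasi-likelihood test. Neighbours called higher numbered 1 with more than 1 CPM in all 6 samples, and 1 was higher and 1 lower with more than 10 CPM. Leaving out 1 library at a time gave 547 to 1285 genes lower (559 and 560 when controls 1 and 2 were left out, 547 for Rnmt cKO 2 and 1285 for Rnmt cKO 3) and 643 to 1221 higher (656 without control 2 and 643 without Rnmt cKO 2), 1 to 3 quiescence factors higher, 0 to 2 dormancy factors lower (2 without Rnmt cKO 3) and 0 to 1 higher, and 2 to 4 neighbours higher (4 without Rnmt cKO 3). The cause of these changes was not tested.

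Deviations of same-numbered libraries from their group means had correlations of -0.21, -0.02 and -0.35, and control 1 and Rnmt cKO 3 correlated at 0.35. With 3 libraries in a group, deviations from the mean depend on each other, so these values cannot settle whether the numbers pair the samples. In the quasi-likelihood test with a replicate block, 276 genes were lower and 431 higher, with 3 naïve genes lower and 5 higher, 1 quiescence factor and 0 dormancy factors higher, and 1 neighbour lower and 1 higher. Among the neighbours, Ccdc148 and Wdsub1 rest on low counts, at 5.08 CPM or less in every library.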
